A study of Mus musculus with 2 samples.

Results

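Large peritoneal macrophages that carried Timd4 transcript were set against large peritoneal macrophages in which none was seen, inside each of 2 single-cell libraries. The libraries were made from F4/80+ cells that had been sorted by flow cytometry out of mouse peritoneal lavage fluid. The first library came from Ankrd22-/- mice, a CRISPR/Cas9 knockout line, and the second from Ankrd22+/+ wild type mice, with 1 library per genotype. The labels give neither the age and sex of the mice nor how many were pooled, and no treatment is given for either genotype. A cell was kept if it had at least 500 genes, at most 10% mitochondrial UMIs and at least 10000 UMIs, where a UMI is 1 counted transcript molecule. It also needed at least 5 UMIs of Prg4, fewer than 5 UMIs per 10000 of the class II genes H2-Aa, H2-Ab1, H2-Eb1 and Cd74 summed, and fewer than 3 UMIs of Mki67, Top2a, Birc5, Cenpf and Ube2c summed. The members were thus chosen by measured transcript counts. Of the gated cells, those with 3 or more Timd4 UMIs were called Timd4 positive and those with 0 Timd4 negative. The knockout library gave 1554 positive and 2486 negative cells, and the wild type library 1414 positive and 1669 negative cells, together 7123 of 13021 barcodes. Another 1080 gated cells held 1 or 2 Timd4 UMIs and entered neither class.

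Timd4 encodes TIM-4, a surface receptor for phosphatidylserine through which resident macrophages bind apoptotic cells. In the peritoneal cavity of mice the large macrophages depend on the transcription factor GATA6 and on retinoic acid, and they are laid down before birth and replaced slowly by cells of bone marrow origin. TIM-4 is known as a mark of the macrophages that have been resident longest, and its absence as a feature of those that arrived more recently. Transcripts alone carry no record of a cell's origin, and origin was not measured here.

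The values of the genes that chose the cells are given as a description. Of the gated cells, 33.2% were Timd4 positive in the knockout library (1554 of 4676, exact binomial 95% interval 31.9 to 34.6%) and 40.1% in the wild type library (1414 of 3527, 38.5 to 41.7%). These intervals cover counting error only, and with 1 library per genotype the shares have no replicate check. The share was highest in the deepest cells. In the shallowest of 5 depth ranges it was 23.3% in knockout cells and 36.2% in wild type cells, and in the deepest, of 30000 or more UMIs, 52.5% in knockout cells and 67.9% in wild type cells. It was lower in the knockout library in each of the 5 ranges. The positive cells had a median of 6 Timd4 UMIs in both libraries, with a highest value of 34 in the knockout library and 29 in the wild type library. Summed over the class, Timd4 (ENSMUSG00000055546, GRCm38 chr11:46810800-46844332, plus strand) stood at 322 CPM, its UMIs scaled to a common total, in knockout positive cells and 393 CPM in wild type positive cells.

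**Figure D1:**
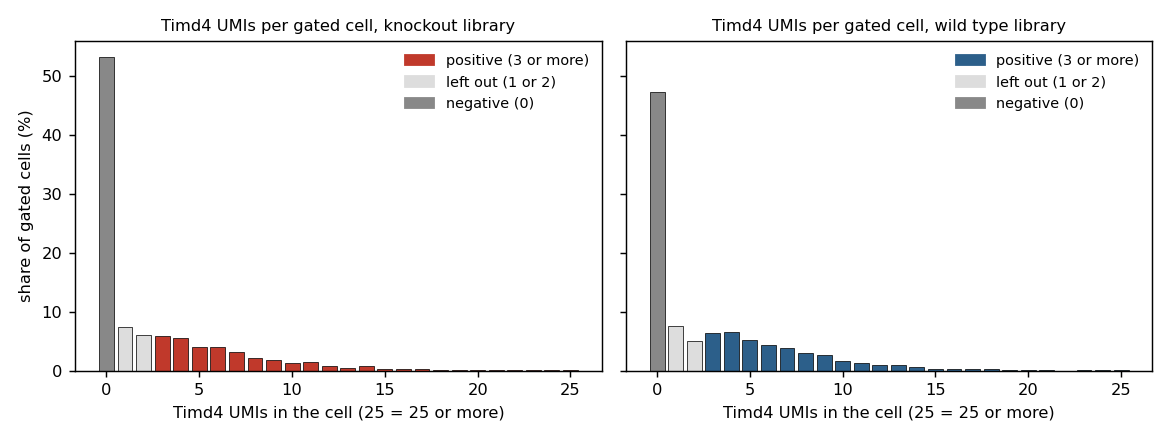
Share of gated large macrophages (%, y axis) by the number of Timd4 UMIs in the cell (x axis), in the knockout library (left) and the wild type library (right). Cells with 0 UMIs were 53.2% of the knockout and 47.3% of the wild type library, and the share falls off beyond with no gap at the threshold of 3 UMIs.

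The counts gave no gap at the threshold. In the knockout library 276 cells had 3 Timd4 UMIs, the lowest positive value, against 286 cells with 2 UMIs and 350 with 1 UMI left out below it. In the wild type library 228 cells had 3 UMIs, against 179 cells with 2 UMIs and 265 with 1 UMI. B-cell-like barcodes held 0 Timd4 UMIs over 21 barcodes in the knockout library and 1 UMI over 25 barcodes in the wild type library. Their medians were 3407 and 4098 UMIs per barcode, against 16815.5 and 16006 in all gated cells. Being few and shallow, they set no background for the gated cells.

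Gata6, Tgfb2 and Nt5e, markers of large peritoneal macrophages that the gate did not use, were detected in both classes. Gata6, the lineage transcription factor, was at 174 CPM in positive and 156 CPM in negative cells of the knockout library, and at 175 CPM in positive and 165 CPM in negative cells of the wild type library. Nt5e was at 73.8 CPM in positive and 65.5 CPM in negative knockout cells, and at 72.5 CPM in positive and 61.1 CPM in negative wild type cells. Prg4, the lubricant proteoglycan, supports nothing here, since the gate required at least 5 of its UMIs. It was at 9992 CPM in positive and 9576 CPM in negative cells of the knockout library. In the wild type library Prg4 was at 8188 CPM in positive and 7725 CPM in negative cells. Ccr2, the chemokine receptor of monocytes, stayed at or under 1.6 CPM in all 4 sums. Summed markers of B cells lay between 3.93 and 5.07 CPM, those of T and NK cells at or under 0.281 CPM, those of mesothelium at or under 0.0435 CPM, and those of dendritic cells between 16.5 and 19.4 CPM. Platelet and erythroid markers summed to 57.8 CPM in positive and 119.9 CPM in negative knockout cells, and to 17.9 CPM in positive and 4.89 CPM in negative wild type cells, so they differed between the classes in opposite directions in the 2 libraries. Neutrophil markers summed to 20.2 CPM in positive and 29.6 CPM in negative knockout cells, and to 14.8 CPM in positive and 20.01 CPM in negative wild type cells, nearly all of it S100a8. Ankrd22 had 0 UMIs in every class, so it does not check the genotype labels.

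Depth differed a little between the classes. Positive cells had a median of 17803.5 UMIs and 3785.5 genes in the knockout library, against 16471.5 UMIs and 3527 genes in negative cells. In the wild type library the medians were 16614 UMIs and 3414.5 genes in positive cells, against 15728 UMIs and 3172 genes in negative cells. The class sums held 30234353 UMIs in knockout positive, 43526407 in knockout negative, 25970129 in wild type positive and 27695260 in wild type negative cells. Of the barcode sequences, 15 occurred in both libraries, 12 of them gated in the knockout library and 9 in the wild type library. Mitochondrial shares were alike between classes, with medians of 1.478% in positive and 1.498% in negative knockout cells and 0.722% in positive and 0.695% in negative wild type cells.

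Between the classes, 823 of 6699 genes tested were higher in Timd4 positive cells (12.3%) and 701 were lower (10.5%), at an adjusted p under 0.05 in edgeR's quasi-likelihood test with the library as a block. Without scaling factors the split was 2147 higher and 237 lower. Most of these differences were small. Only 20 genes (0.299%) exceeded 1.5-fold on the higher side in both libraries and 8 (0.119%) on the lower side, and the median log2 ratio over all genes tested was 0.0031. The 2 libraries are the replicates of this contrast, so its p-values measure how far the class difference varied between 1 knockout and 1 wild type library, and not the spread between mice. The test leaves 1 residual degree of freedom per gene and borrows the rest of its spread from the other genes. Without the library as a block it called 0 genes, with 55 genes at an unadjusted p under 0.05. All 24 leading genes described below were also called with the classes matched on depth, at 1490 cells per class in the knockout library and 1305 in the wild type library, and with every cell thinned to 10000 UMIs. A class mean cannot tell more expressing cells from more transcript per cell.

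**Figure D2:**
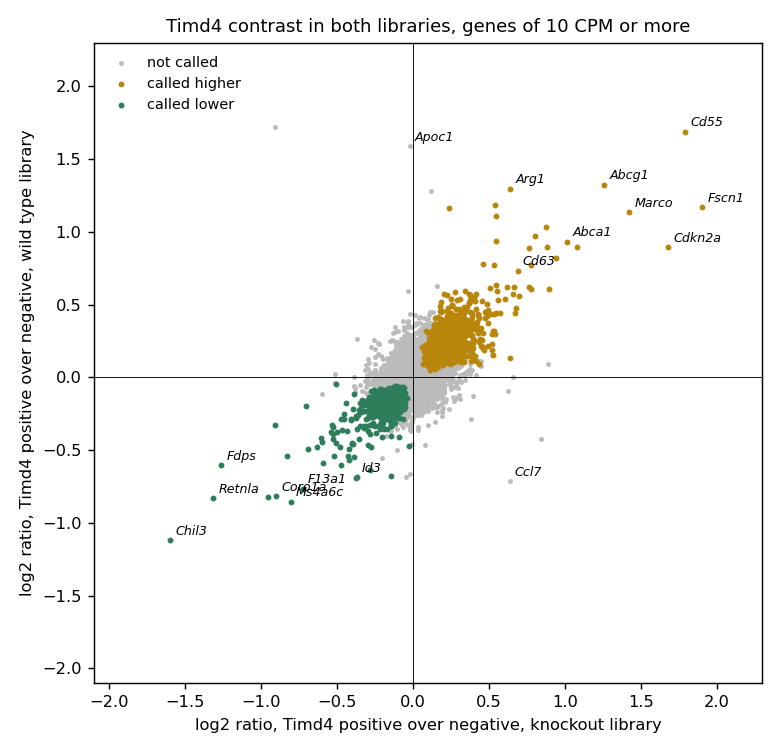
Log2 ratio of Timd4 positive over Timd4 negative cells in the knockout library (x axis) and the wild type library (y axis), 1 point per gene of at least 10 CPM, coloured by the call over both libraries. Abcg1, Abca1, Marco and Cd55 lie far to the upper right, Chil3 and Retnla to the lower left, and Ccl7 and Apoc1 off the diagonal.

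Among genes of at least 20 CPM on average, the highest ratios in positive cells were those of the cell cycle inhibitor locus Cdkn2a, the cholesterol exporters Abcg1 and Abca1 and the scavenger receptor Marco. Cdkn2a, which encodes the inhibitors INK4A and ARF, was at 135 CPM in positive and 42.1 CPM in negative cells of the knockout library, and at 156 CPM in positive and 84.3 CPM in negative cells of the wild type library. Its fitted log2 ratio was 1.29 ± 0.15 (SE, adjusted p = 0.00419), made of 1.68 in the knockout library and 0.89 in the wild type library, whose counting intervals did not overlap. The positive sums of both libraries lay closer to each other than the negative ones. Abcg1 (ENSMUSG00000024030), an exporter of cholesterol to high-density lipoprotein, was at 40.6 CPM in positive and 16.99 CPM in negative knockout cells, and at 31.3 CPM in positive and 12.5 CPM in negative wild type cells. Its log2 ratio of 1.28 ± 0.05 (adjusted p = 0.000125) was made of 1.26 in knockout and 1.32 in wild type cells, with overlapping counting intervals. Abcg1 reached the mean of 20 CPM only through the positive cells, so its place among the leading genes is a description. Abca1, which exports cholesterol to lipid-poor apolipoprotein A-I, was at 55.6 CPM in positive and 27.5 CPM in negative knockout cells, and at 86.4 CPM in positive and 45.3 CPM in negative wild type cells (log2 ratio 0.97 ± 0.04, adjusted p = 0.000125). Both positive sums of Abca1 lay above both negative ones.

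Marco, a class A scavenger receptor that binds bacteria and particles, was at 45.7 CPM in positive and 17.02 CPM in negative knockout cells, and at 104 CPM in positive and 47.5 CPM in negative wild type cells. Its log2 ratio was 1.26 ± 0.07 (adjusted p = 0.000239), and the wild type library held more of it in each class. Arg1, the arginase that splits arginine into ornithine and urea, was at 263 CPM in positive and 169 CPM in negative knockout cells, and at 105 CPM in positive and 42.99 CPM in negative wild type cells. The rise was of unequal size, 0.64 in the knockout library and 1.29 in the wild type library on the log2 scale, on levels that were higher in the knockout library. Slc7a2, which imports arginine, also rose (0.59 ± 0.06, adjusted p = 0.00225). The tetraspanin Cd63 of late endosomes (0.71 ± 0.03), the secreted ligand Wnt2 (0.70 ± 0.05) and the metalloprotease Adam8 (0.61 ± 0.04) rose in both libraries, all with adjusted p at or under 0.000583. The remaining leaders on the higher side were Tcim (0.61), the noncoding host transcript Mir99ahg (0.61) and the annotated locus Mir6236 (0.70), whose UMIs do not measure mature microRNA. Mir6236 was decided by the wild type library, at 0.24 in the knockout against 1.17 in the wild type library.

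Several genes with a mean under 20 CPM, named after their values were seen, are given as a description. Cd55 encodes decay-accelerating factor, a brake on complement at the cell surface. Knockout cells held it at 17.4 CPM (positive) and 5.03 CPM (negative), and wild type cells at 29.9 and 9.26 CPM. Its log2 ratio was 1.74. Cd55, Fscn1, Ryr2 and Epas1 were under 10 CPM in the negative cells of both libraries and passed the filter on the mean through the positive cells. Their ratios are therefore given without a test result. Fscn1, the actin bundling protein fascin, had a log2 ratio of 1.54. It was at 16.7 CPM in positive and 4.46 CPM in negative knockout cells, and at 21.5 and 9.54 CPM in wild type cells. The calcium channel gene Ryr2 (0.99) and Epas1, which encodes the hypoxia-inducible factor HIF-2α (0.93), were higher in the positive cells of both libraries as well.

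Among genes of at least 20 CPM on average, those lower in Timd4 positive cells were led by Chil3 and Retnla, which encode secreted products. Chil3, a secreted chitinase-like protein, was at 161 CPM in positive and 488 CPM in negative cells of the knockout library, and at 8.75 CPM in positive and 19.01 CPM in negative cells of the wild type library. Its log2 ratio was -1.53 ± 0.07 (adjusted p = 0.000145), with -1.60 in the knockout library and -1.12 in the wild type library, on levels far apart between the libraries. Retnla, a secreted protein of the resistin family induced by interleukin 4, was at 53.6 CPM in positive and 134 CPM in negative knockout cells, and at 560.2 CPM in positive and 996 CPM in negative wild type cells (-1.03 ± 0.09, adjusted p = 0.0017). Chil3 was thus most abundant in the knockout library and Retnla in the wild type library, and in both libraries the positive cells held less of each. Chil3, Retnla, S100a8 and Cd209b have close relatives in the genome, and their values are uncertain to the extent that reads were divided among them.

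F13a1, the A chain of coagulation factor XIII, was at 28.04 CPM in positive and 46.4 CPM in negative knockout cells, and at 136 CPM in positive and 231 CPM in negative wild type cells (-0.75 ± 0.03, adjusted p = 0.000125). Cd52, a small glycoprotein of leukocyte surfaces, had the same log2 ratio in each library, -0.59 in the knockout library and -0.59 in the wild type library, at 169 CPM in positive and 255 CPM in negative knockout cells and 432 CPM in positive and 650.2 CPM in negative wild type cells. Coro1a, an actin-binding protein of leukocytes (-0.88 ± 0.06), and the membrane-spanning Ms4a6c (-0.83 ± 0.04) also fell in both libraries. The neighbouring ion channel genes Tmem176b (-0.59 ± 0.04) and Tmem176a (-0.55 ± 0.04) fell together, as did the alarmin S100a8 (-0.54) and the haemoglobin-binding protein Hp (-0.48). Coro1a and S100a8 reached the mean of 20 CPM only through the negative cells, so their place among the leading genes is a description. Id3, an inhibitor of basic helix-loop-helix factors, and Marcksl1, an actin-regulating protein, completed the lower side. Both rested more on the wild type library, where Id3 was at 36.2 CPM in positive and 58.4 CPM in negative cells, against 7.0 CPM in positive and 9.05 CPM in negative cells of the knockout library. Marcksl1 had a log2 ratio of -0.15 in the knockout, with a counting interval of -0.33 to 0.03, against -0.68 in the wild type library.

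**Figure D3:**
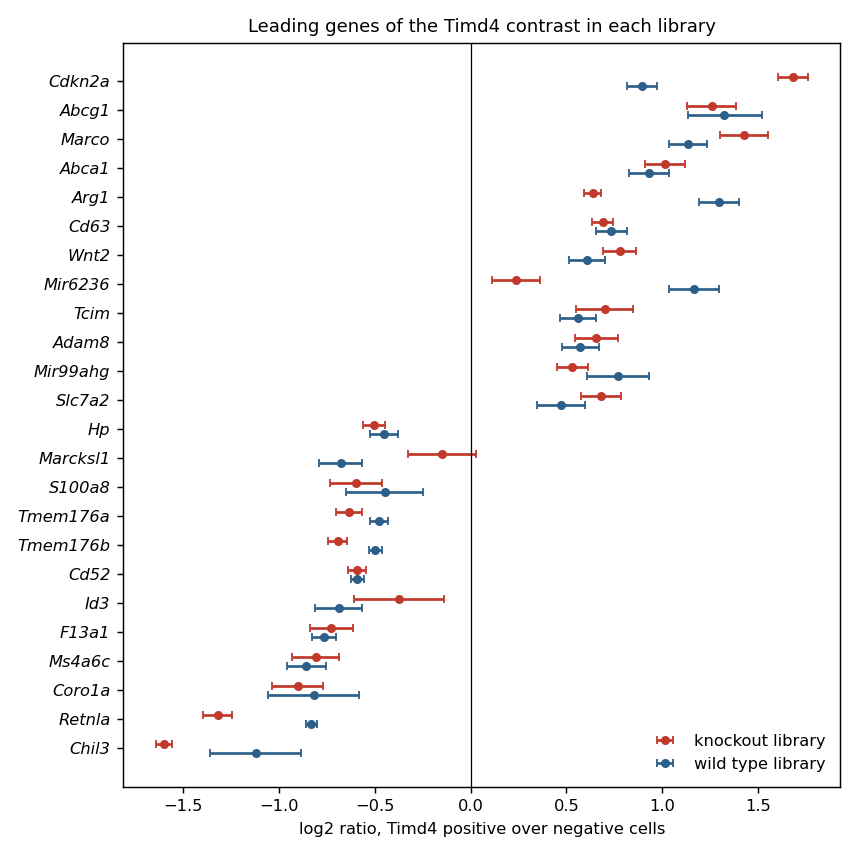
Log2 ratio of Timd4 positive over Timd4 negative cells (x axis) for the 12 leading higher and the 12 leading lower genes (y axis), in both the knockout and wild type libraries. Bars are 95% intervals for counting error only. All 24 genes lie on the same side of 0 in both libraries, and Cdkn2a, Arg1, Mir6236 and Marcksl1 show the widest gaps between the libraries on their side.

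The genes of the large peritoneal macrophage programme leaned towards the positive cells. Of 30 listed genes 28 were tested, 16 rose and 5 fell, beside 12.3% and 10.5% of all genes tested, with a median log2 ratio of 0.13 against 0.0031, and 21 of the 28 were above 0 in both libraries against 39.5% of all genes tested. Tgfb2, a transforming growth factor ligand of these cells, was at 543 CPM in positive and 410.4 CPM in negative knockout cells, and at 527 CPM in positive and 367 CPM in negative wild type cells (0.46 ± 0.03, adjusted p = 0.000583). Gata6 itself rose by little (0.13 ± 0.03, adjusted p = 0.0323), as did Nt5e, the ectonucleotidase CD73 (0.21 ± 0.04, adjusted p = 0.0142), and Adgre1, the F4/80 gene of the sort (0.19 ± 0.02). Cxcl13, the chemokine that draws B cells, was at 730.5 CPM in positive and 469 CPM in negative knockout cells, and at 4819 CPM in positive and 4389.6 CPM in negative wild type cells, a rise of 0.64 in the knockout against 0.13 in the wild type library. The 5 members that fell were Car6 (-0.23), the transcription factor Cebpb (-0.20), the lipoxygenase Alox15 (-0.17), Icam2 (-0.12) and Cd9 (-0.09).

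Of 20 genes listed for long residence in tissue, 12 were tested, 5 rose and 2 fell (median 0.27), where 12.3% of all genes tested rose and 10.5% fell. Beside Marco, the risers were Cd209b, a lectin of the DC-SIGN family (0.89 ± 0.07), the collectin scavenger receptor Colec12 (0.73 ± 0.10), Vsig4, the complement receptor CRIg (0.38 ± 0.02), and Cd5l, a secreted scavenger protein that keeps macrophages alive (0.30 ± 0.03). Cd209b was at 3.83 CPM in knockout and 11.03 CPM in wild type negative cells, and Colec12 at 8.33 and 10.87 CPM. Both passed the filter on the mean only with the positive cells counted. Apoc1, given below, passed it only through the wild type positive cells. The place of Cd209b and Colec12 among the risers and the list median of 0.27 are therefore a description. The chemokine gene Pf4 fell (-0.15). The acute phase protein gene Saa3 fell in both libraries, at 7964 CPM in positive and 10444 CPM in negative knockout cells and 4681 CPM in positive and 6834 CPM in negative wild type cells (-0.47 ± 0.03). Apoc1 stood at 6.15 CPM in positive and 6.24 CPM in negative knockout cells against 27.5 CPM in positive and 9.14 CPM in negative wild type cells, which was not called (0.92 ± 0.30, adjusted p = 0.0654). Lyve1 (-0.23), Fcna (0.05), Hmox1 (0.06) and Igf1 (0.25) were tested but not called. Others of the list, such as Folr2, Cd163 and Mrc1, were under the 10 CPM needed for a test. Some of these leaned towards the negative cells. Folr2 had log2 ratios of -0.92 (knockout) and -0.87 (wild type), Cbr2 of -0.79 and -0.61, and Mrc1 of -0.12 and -0.33. Cd163 (0.67 and -0.01) and Gas6 (-0.79 and 0.37) had mixed signs. The list thus had no single direction.

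Most tested genes of monocytes and recruited macrophages were lower in positive cells. Of 27 listed genes 14 were tested, of which 11 fell and 2 rose, beside 10.5% falling and 12.3% rising among all genes tested, with a median of -0.26. Next to Chil3, Retnla, F13a1 and Cd52, the members that fell included the calcium-binding protein gene S100a4 (-0.34) and the lysozyme gene Lyz1 (-0.27). Ifitm3 (-0.22), Klf2 (-0.15) and Ifitm6 (-0.12) fell too. The proteoglycan gene Vcan (-0.25) was at 13.3 CPM in positive and 16.1 CPM in negative knockout cells, and at 5.14 and 5.81 CPM in wild type cells. Vcan passed the filter on the mean only with the negative cells counted, so its part in the count is a description. The lectin Clec10a (0.39) and Fn1, fibronectin (0.22), rose. Members whose mean was under 10 CPM were not tested and had mixed signs. Irf4 had log2 ratios of 0.19 (knockout) and 0.48 (wild type), Mgl2 of 0.08 and 0.17, and Cx3cr1 of 0.05 and 0.81. Napsa, at -1.41 and -1.23, and Ccr2, at -0.63 and -1.86, leaned towards the negative cells. Of 7 listed class II genes outside the gate, 5 were under the 10 CPM needed for a test, and the other two, H2-DMb1 (-0.19) and H2-DMa (-0.14), fell. Among the class II genes that the gate limited, H2-Ab1 was at 14.99 CPM in positive and 21.04 CPM in negative knockout cells. In wild type cells H2-Ab1 was at 24.7 CPM in positive and 34.5 CPM in negative cells. Cd74 had log2 ratios of -0.41 (knockout) and -0.48 (wild type), and H2-Eb1 of -0.48 and -0.28. H2-Aa had no common direction, at 0.07 (knockout) and -0.07 (wild type). Since the gate limited these genes, their values are a description. Neutrophil markers were lower in positive cells too, by the values given above, and their part in these results was not tested.

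**Figure D4:**
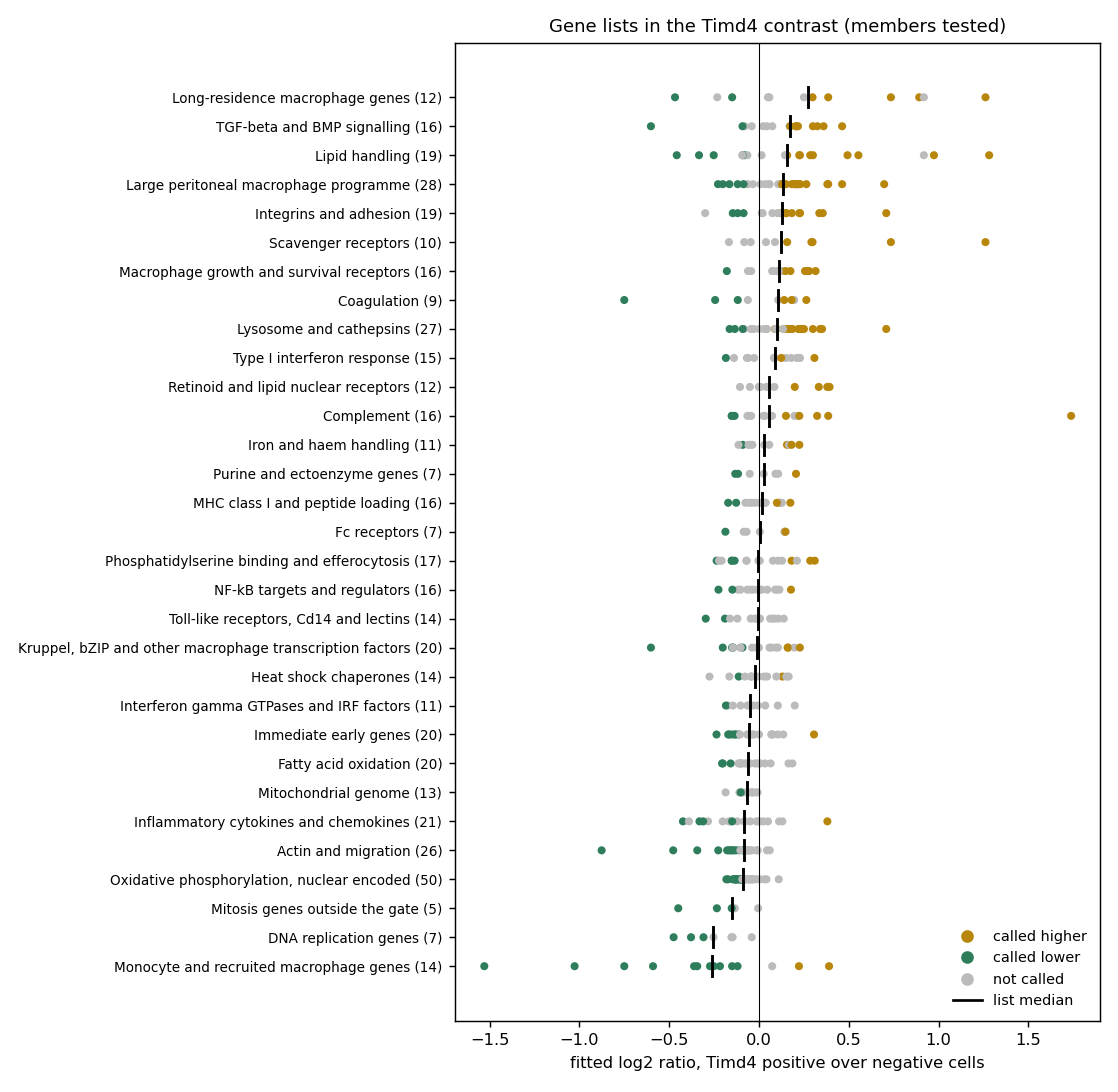
Fitted log2 ratios of Timd4 positive over Timd4 negative cells (x axis) for the members of each gene list with at least 5 members tested (y axis, number tested in brackets), coloured by the call, with the list median as a bar. Long-residence, transforming growth factor and lipid handling genes have the highest medians (0.27, 0.17 and 0.16). Monocyte and DNA replication genes have the lowest (-0.26 and -0.25). The long-residence median is a description, since Cd209b, Colec12 and Apoc1 passed the filter through positive cells.

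Lipid handling genes moved both ways. Of 23 listed genes 19 were tested, 9 rose and 5 fell (median 0.16), against 12.3% and 10.5% of all genes tested. Beside the exporters Abcg1 and Abca1, the risers were the ubiquitin ligase gene Mylip (0.55 ± 0.05, adjusted p = 0.00198), the lipoprotein lipase gene Lpl (0.49 ± 0.03), the lysosomal cholesterol exporter gene Npc1 (0.30), the lysosomal acid lipase gene Lipa (0.23), the receptor genes Lrp1 (0.28) and Cd36 (0.16), and Hilpda (0.22). The members that fell included the fatty acid carrier genes Fabp5 (-0.46) and Fabp4 (-0.08), the apolipoprotein gene Apoe (-0.33) and Npc2 (-0.09). The upstream sequence of Abca1 is shown because the gene leads the contrast and its promoter is known to bind the oxysterol receptors LXR. It is the 250 bases before the start of the gene (RefSeq, GRCm38.p6, chr4:53159896-53160145, minus strand, read 5′ to 3′ towards the gene), with the match to the motif GGTTA, 5 bases of any kind and GGTCA in capitals, on the opposite strand and beginning 67 bases before the start.
Abca1: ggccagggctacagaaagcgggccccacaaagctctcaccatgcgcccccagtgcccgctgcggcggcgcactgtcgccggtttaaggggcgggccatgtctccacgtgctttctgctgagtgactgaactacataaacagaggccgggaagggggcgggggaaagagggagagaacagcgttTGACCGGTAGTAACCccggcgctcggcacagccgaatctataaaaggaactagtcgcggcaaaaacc
Both strands were searched, and 15 of 32851 upstream windows of the same length hold this motif (0.0457%). The LXR gene Nr1h3 was too low for a test, at 4.43 CPM in positive and 3.85 CPM in negative knockout cells and 2.89 CPM in positive and 2.33 CPM in negative wild type cells, and Nr1h2 was not called (-0.05).

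Lysosomal genes included many that rose. Of 30 listed genes 27 were tested, 14 rose, beside 12.3% of all genes tested, and 3 fell, which is near the 10.5% of all genes, with a median of 0.10. Ctsd, the aspartic protease cathepsin D, was at 1091 CPM in positive and 859.8 CPM in negative knockout cells, and at 1361 CPM in positive and 1062 CPM in negative wild type cells (0.35 ± 0.02, adjusted p = 0.000405). The progranulin gene Grn (0.25), the protease gene Lgmn (0.24) and the saposin precursor gene Psap (0.22) rose as well. The cysteine cathepsin genes Ctss (-0.14) and Ctsz (-0.16) fell, as did Npc2. The upstream sequence of Ctsd is shown because it holds the letters CACGTG, the E-box bound by TFEB, a transcription factor of lysosomal genes. It is the 250 bases before the start of the gene (RefSeq, GRCm38.p6, chr7:142387828-142388077, minus strand, read 5′ to 3′ towards the gene), with the matches in capitals, beginning 245 and 98 bases before the start.
Ctsd: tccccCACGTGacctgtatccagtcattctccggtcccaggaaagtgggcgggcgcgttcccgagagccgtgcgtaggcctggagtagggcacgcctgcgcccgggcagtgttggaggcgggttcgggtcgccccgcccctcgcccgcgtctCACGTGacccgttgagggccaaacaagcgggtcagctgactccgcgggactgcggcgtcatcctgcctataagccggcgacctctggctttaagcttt
The letters CACGTG, which read the same on both strands, are in 6.02% of all 32851 windows. Of the 30 listed lysosomal genes 22 had a window and 6 of these hold the letters, namely Atp6v1a, Ctsa, Ctsd, Ctsl, Lamp1 and Lgmn. Of these 6, Ctsa (0.22), Ctsd, Lamp1 (0.09) and Lgmn rose, while Atp6v1a (0.13) and Ctsl (-0.03) were not called. The longer form TCACGTGA, which contains the shorter one, is in 0.785% of all windows and in those of Atp6v1a, Ctsa and Ctsd.

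The transforming growth factor family had risers among its ligands and receptors. Of 25 listed genes 16 were tested, 8 rose, beside 12.3% of all genes tested, and 2 fell, near the 10.5% of all genes (median 0.17). The ligand Tgfb2 was joined by the receptor genes Tgfbr1 (0.36), Eng (0.30), Bmpr2 (0.22) and Tgfbr2 (0.21), by Ltbp1, whose product binds the latent ligand (0.21), by the induced matrix protein gene Tgfbi (0.32) and by the repressor gene Ski (0.17). The transcriptional inhibitor genes Id3 (-0.60) and Id2 (-0.09) fell. Tgfb1, the ligand shared by most leukocytes, was not called (0.02).

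Of 29 listed adhesion genes 19 were tested, 10 rose, beside 12.3% of all genes tested, and 3 fell, near the 10.5% of all genes (median 0.13). The risers besides Cd63 included the integrin subunits Itga9 (0.35), Itgb7 (0.23) and Itgb2 (0.22) and the lectin-like receptor gene Cd93 (0.34), and the members that fell were Cd81 (-0.15), Icam2 and Cd9. Actin and migration genes were lower in 14 of 26 and higher in 0 (10.5% and 12.3% over all genes tested). Beside Coro1a and S100a4, Tmsb10, which binds monomeric actin, was at 154 CPM in positive and 222 CPM in negative knockout cells and 166 CPM in positive and 223 CPM in negative wild type cells (-0.48 ± 0.03). Without scaling factors 6 of the 26 were called lower and 2 higher.

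Genes for the uptake of apoptotic cells, the process in which TIM-4 takes part, showed no common direction. Of 31 listed genes 17 were tested, 3 rose and 4 fell, against 12.3% and 10.5% of all genes tested, and the median was -0.0037, which turned to 0.07 without scaling factors. Abca7 (0.31), the receptor gene Lrp1 (0.28) and the bridging protein gene Pros1 (0.18) rose. The opsonin genes C1qa (-0.15), C1qb (-0.15) and C1qc (-0.14) and the phospholipid-binding gene Anxa1 (-0.24) fell, and the receptor gene Mertk was not called (0.11). Within the complement list, 5 of 16 tested genes rose and 3 fell (22 listed), beside 12.3% and 10.5% of all genes tested. There C4b (0.32 ± 0.04), Vsig4, the integrin genes Itgam (0.15) and Itgb2 and the regulator Cd55 rose, while the 3 members that fell were the C1q chains. Cd55 is in this count although it passed the filter on the mean through the positive cells, so its part in the count is a description. Scavenger receptors rose in 5 of 10 tested members, beside 12.3% of all genes tested, and fell in 0 (16 listed).

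Nuclear genes of oxidative phosphorylation were slightly lower in positive cells. Of 50 tested, 24 fell and 0 rose, beside 10.5% and 12.3% of all genes tested, with a median of -0.09, and 44 of the 50 were below 0 in both libraries against 38.1% of all genes tested. The differences were small, the lowest being Atp5g2 (-0.18 ± 0.05) and Uqcrfs1 (-0.17 ± 0.03), and without scaling factors 0 were called lower and 2 higher. DNA replication genes fell in 3 of 7 tested members (Dut -0.48, Mcm4 -0.38 and Mcm6 -0.31, 20 listed), beside 10.5% of all genes tested. Their median was -0.35 in the knockout library and -0.05 in the wild type library. Since the gate limits cycling cells by 5 other cycle genes, this list describes what is left after that step. Inflammatory cytokine and chemokine genes fell in 4 of 21 tested members and rose in 1, Cxcl13, beside 10.5% falling and 12.3% rising over all genes tested, and their median was 0.06 in knockout and -0.14 in wild type cells. The members that fell were Ccl4 (-0.42), Il1b (-0.33), Ccl24 (-0.31) and Pf4 (-0.15).

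The genes most like Timd4 from cell to cell were found among all gated cells, thinned to 10000 UMIs each, by the mean of the Spearman correlations in both libraries over 7918 genes. These are descriptions in sparse counts, over 4676 knockout and 3527 wild type cells that share their library, and they were all weak. The highest were Ctsd (0.24), the heparan sulfate proteoglycan gene Sdc3 (0.23), the protease inhibitor gene Serpinb6a (0.22), Fn1 (0.22), Plxdc2 (0.22), C4b (0.22), Cd5l (0.21), Tgfb2 (0.20), the ferritin light chain gene Ftl1 (0.20) and the matrix gene Emilin2 (0.19). Since the class contrast splits the same cells by the same Timd4 count, their levels in the classes are given only as a description, with log2 ratios from 0.16 (Ftl1) to 0.50 (Sdc3).

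Levels along the Timd4 count showed where the cells left out of the contrast stood. In cells with 1 or 2 Timd4 UMIs, 10 of the 12 leading higher genes had a summed level between those of cells with 0 and with 3 to 5 UMIs in the knockout library, and 12 of 12 in the wild type library. Among the 12 leading lower genes this held for 9 in the knockout library and 10 in the wild type library. Abca1 was at 29.1 CPM with 0, 51.00 CPM with 1 or 2, 60.6 CPM with 3 to 5, 61.3 CPM with 6 to 9 and 61.3 CPM with 10 or more Timd4 UMIs in the knockout library. In the wild type library it was at 40.8, 56.8, 80.8, 80.7 and 90.02 CPM over the same ranges, so the widest step lay between 0 and 1 or 2 UMIs in the knockout library and between 1 or 2 and 3 to 5 UMIs in the wild type library. Ctsd in the knockout library was at 908, 1032, 1151, 1183 and 1300.5 CPM over the same ranges, and so kept climbing up to the highest range. The ranges held 2486, 636, 722, 527 and 305 cells in the knockout library, and these values carry no scaling factor.

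**Figure D5:**
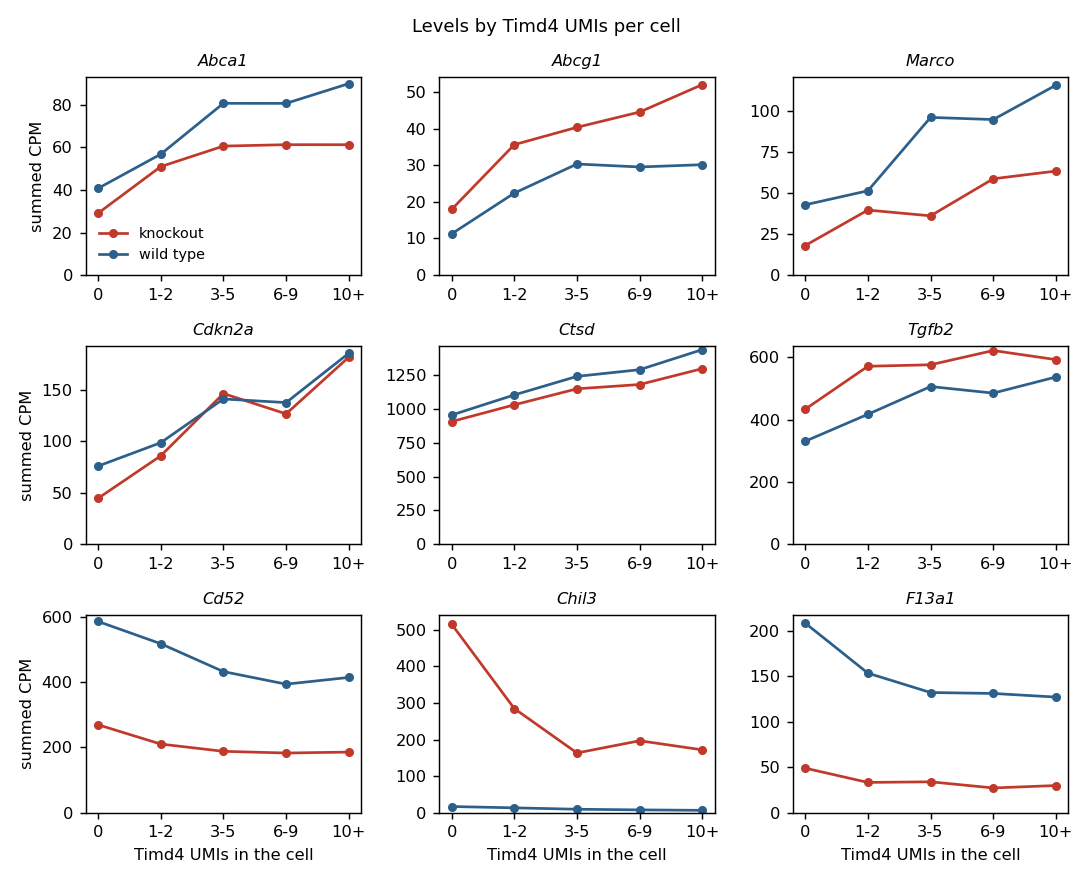
Summed level (CPM without scaling factors, y axis, from 0) of 9 genes by the number of Timd4 UMIs in the cell (x axis), in both the knockout and wild type libraries. Ctsd and Cdkn2a are highest in cells with 10 or more Timd4 UMIs in both libraries, and Chil3 and F13a1 are highest in cells with none.

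Between the genotypes the cells of each class differed more than the classes did. Over 4683 genes of at least 20 CPM, the median absolute log2 ratio was 0.20 for knockout over wild type in positive cells and 0.21 in negative cells, against 0.09 for positive over negative cells in the knockout library and 0.10 in the wild type library. With 1 library per genotype these are differences between libraries, with no test. In positive cells, 2-fold or more separated the knockout from the wild type library upward in 53 of 5014 genes at 20 CPM or more (1.06%) and downward in 149 (2.97%). In negative cells this was so upward in 58 of 4941 genes (1.17%) and downward in 163 (3.3%). Of the genes of the class contrast, Tcim was at 24.8 CPM in knockout and 93.6 CPM in wild type positive cells, and at 15.3 CPM in knockout and 63.4 CPM in wild type negative cells. Id3, F13a1, Cd52 and both Tmem176 genes were likewise lower in the knockout library in each class, while Arg1 and Chil3 were higher.

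Of the genes tested, 39.5% had a class ratio above 0 in both libraries and 38.1% below 0 in both, and the others did not have the same sign in both. The ratios of the 2 libraries were 1.5-fold or more apart in 19 of 6699 genes tested (0.284%), and in 5 of the 140 named genes tested, which were Cdkn2a, Arg1, Mir6236, Ccl7 and Hbb-bs. With 1 sum per class and library no test of this difference was possible.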

How the data were processed

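The deposited values are UMI counts per gene and barcode. Per the file headers the authors made them with Cell Ranger 6.1.2, from the 10x Genomics 3′ v3 kit per the labels. The submitters' processing notes also list bcl2fastq, Seurat 4.1.0 and the mm9 build, without saying what each did. All 55450 feature identifiers are those of GENCODE release 21 of the mouse annotation (GRCm38), which gave the position printed. The members and the gene lists were chosen with earlier results of these data known.

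Cells were gated as described above. Counts were summed per library and class into 4 sums, which held 25970129 to 43526407 UMIs. Genes whose mean reached 10 CPM were tested with edgeR 4.0.16 (TMM factors, quasi-likelihood test, library as block, Benjamini-Hochberg adjustment over all genes tested). The block rests on the design, since both classes of a library were drawn from the same captured cells. The CPM printed carry the TMM factors. Ratios within a library are log2 ratios of CPM without a pseudocount, and their 95% intervals come from the exact conditional binomial and cover counting error only. A gene needed 3 UMIs in each sum for a ratio. Genotypes were compared inside each class by the 2-fold rule at 20 CPM, with no test. Doublets were left in, and an alternative left out the barcodes with the highest Scrublet scores, at 0.8% per 1000 barcodes. Named genes were the 12 leading higher and the 12 leading lower genes by fitted ratio among called genes of at least 20 CPM with the same direction in both libraries, up to 4 members of each of 41 lists, and the 10 most like Timd4. Haemoglobin, ribosomal, mitochondrial, sex-linked and unnamed genes were left out of the first 24, and other genes named from the lists or under 20 CPM were chosen after their values were seen. In simulated sums with 6683 genes tested, planted changes of 1.25-fold were called in 46 of 48 genes and of 1.5-fold in 48 of 48, and 7 of 6492 unaltered genes were called. The simulation gave all genes the same dispersion and each planted change the same size in both libraries. Real genes need not share either, so these rates hold for that setting only. The alternatives were other scalings, filters, gates and Timd4 thresholds, thinning, depth matching, doublet removal, DESeq2 1.42.0, no block, and each library alone. Values of some single genes are not reported here. Python 3.11.15, scanpy 1.11.5 and R 4.3.3 were used.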

Additional observations from a re-analysis of the deposited data

Results flagged for a closer look

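Of the named genes, 3 had log2 ratios of Timd4 positive over negative cells that went opposite ways in the 2 libraries, each with a counting interval that left out 0. This difference between the libraries was not tested, since each has 1 sum per class. Ccl7, a chemokine that attracts monocytes, had a ratio of 0.64 in the knockout library and -0.71 in the wild type library, at 7.0 CPM in positive and 4.50 CPM in negative knockout cells and 31.6 CPM in positive and 51.8 CPM in negative wild type cells. Malat1, a nuclear noncoding RNA, had a ratio of -0.0502 in the knockout library and 0.05 in the wild type library. Hbb-bs, a beta globin gene of red cells, had a ratio of -0.91 in the knockout library and 1.72 in the wild type library, at 38.5 CPM in positive and 72.3 CPM in negative knockout cells and 7.55 CPM in positive and 2.29 CPM in negative wild type cells.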

How the results depend on the processing

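Counts of genes higher and lower in Timd4 positive cells moved most with the model and the scaling. They were 2147 higher and 237 lower without scaling factors, where the median gene stood at 0.07 instead of 0.0031, 131 higher and 188 lower by DESeq2, and 426 higher and 208 lower with a filter of 50 CPM, which tested 2327 genes. With no filter 1242 genes were lower, and with cells of 5000 or more UMIs 1241 were higher and 1068 lower. With no replicate block 0 were higher and 0 lower. Genes 1.5-fold higher in both libraries numbered 224 with no filter and 8 at 50 CPM, and the lower ones 153 with no filter, 3 at 50 CPM and 13 with the Timd4 rule on thinned counts. In 1 library alone, 31 to 36 were higher and 16 to 17 lower. The positive share was 22.3% in the knockout library and 28.4% in the wild type library with the Timd4 rule on thinned counts, 46.8% and 52.7% from 1 UMI, 21.8% and 27.1% from 5 UMIs, and 31.2% and 37.3% with cells of 5000 or more UMIs. Without scaling factors 103 genes in positive and 122 in negative cells were 2-fold higher in the knockout library, a setting chosen after the data were seen. The cause was not tested for any of these. All 24 leading genes lost their call with no replicate block (highest adjusted p 0.9997, edgeR). Those tested under each of the other edgeR settings kept direction and call, and the 18 with an adjusted p in DESeq2 were called there too. No named gene that was called changed direction. The prior degrees of freedom were 5.94 in the fit reported and infinite without a filter or scaling factors or with depth matched, so counts of calls also move with them.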

Other observations

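The following 3 groups were put together after values of these data were seen, so their counts describe and support nothing. Genes of the cholesterol synthesis group were lower in Timd4 positive cells, where the cholesterol exporters Abca1 and Abcg1 were higher. Of 24 genes put together 10 were tested, 7 fell and 0 rose, beside 10.5% falling and 12.3% rising among all genes tested. The median log2 ratio was -0.25 against 0.0031 over all genes tested. Fdps makes farnesyl diphosphate. Knockout cells held it at 7.57 CPM (positive) and 18.2 CPM (negative), and wild type cells at 10.1 and 15.3 CPM, a log2 ratio of -0.97. It passed the filter on the mean only with the negative cells counted, so its ratio is given without a test result. Srebf2, which encodes SREBP-2 itself (-0.52), Pmvk (-0.46), Msmo1 (-0.33), Insig1 (-0.25) and Ebp (-0.22) were among the others that fell, while Mvd (0.05) was not called. The same 7 of 10 count was found without scaling factors.

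Targets of the oxysterol receptors LXR did not move as one group. Of 22 genes put together 15 were tested, 5 rose and 2 fell, beside 12.3% rising and 10.5% falling among all genes tested. The risers were Abcg1, Abca1, Mylip, Lpl and Cd5l, and the members that fell were Apoe (-0.33) and Apoc4 (-0.54).

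Cytosolic ribosomal protein genes were lower in Timd4 positive cells in 72 of 78 tested and higher in 0, by little (median -0.13). Among all genes tested, 10.5% were lower and 12.3% higher. The count of lower ribosomal genes was 63 with the classes matched on depth and 20 without scaling factors, where their median was -0.06.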
